A study of Mus musculus with 4 samples.

Results

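The cells described here are the interferon-responding CD8+ T cells of a single-cell RNA-seq series on the antiviral response of T cells that lack Bcl-3, an IκB protein that works with NF-κB inside the nucleus. They were chosen by their own counts, among barcodes that held 500 genes or more and no more than 10% of mitochondrial UMIs. A cell was taken when the unique molecular identifiers (UMIs, which count each captured transcript once) of *Ifit1*, *Ifit3*, *Usp18*, *Rsad2* and *Cmpk2* summed to at least 3. It also had to hold at least 1 UMI of *Cd8a* or *Cd8b1*, none of the B cell genes *Cd79a* and *Ms4a1*, at most 1 of the macrophage genes *Csf1r* and *C1qb*, and at most 1 of the cell cycle genes *Mki67*, *Birc5* and *Top2a*. This left 848 of 24893 cells, of which 20818 met every condition other than the first. The remaining 19970 cells, called here the other non-cycling CD8 cells, are the cells of comparison.

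Type I interferons are secreted by infected and sensing cells and bind a receptor that nearly all nucleated cells carry. Receptor-bound kinases then phosphorylate STAT proteins, which join IRF9 and switch on interferon-stimulated genes through short promoter elements. These genes encode proteins that bind viral RNA, block viral entry, trim nucleotides or tag proteins with ISG15, and others, such as *Usp18* and *Socs1*, that damp the signal. In CD8+ T cells that meet a virus, interferon also shapes expansion and effector differentiation.

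The series holds 4 libraries. Marrow of wild-type donors (WT, congenic B6.SJL background, CD45.1) and of germline *Bcl3*-/- donors (CD45.2), the study's mice being on the C57BL/6 background throughout, was mixed in equal parts and given to sub-lethally irradiated *Rag1*-/- recipients, which make no T or B cells of their own. After at least 6 weeks the chimeras were infected intraperitoneally with LCMV Armstrong, and on day 8 splenic CD8+ T cells that bound a tetramer of the viral GP33 peptide were sorted by CD45 allele. Each of 2 chimeras gave 1 WT and 1 *Bcl3*-/- library (WT1 and KO1, WT2 and KO2), so that n = 2 libraries per genotype. All cells came from infected chimeras and none from an uninfected animal, and genotype cannot be told apart from the congenic donor or from the library. The deleted part of *Bcl3* is not given in the sources used here, so its 3′ counts cannot serve as a check of the labels. WT1 and WT2 were read to 21193300 and 20358780 UMIs and KO1 and KO2 to 22922219 and 22672343. The interferon-responding cells numbered 187 and 315 in the WT libraries (WT1, WT2) and 131 and 215 in the *Bcl3*-/- libraries (KO1, KO2), with medians of 3707, 2221, 3789 and 3117 UMIs per cell. Those of the other cells were 3430.5, 1972.5, 3552 and 2888. Between 37 and 63 barcodes of cells were shared by any pair of libraries, and 1 barcode of an interferon-responding cell was shared (KO1 with KO2).

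The promoters of several of the genes that define these cells, or that were highest in them, hold the 10-base element GAAANNGAAA, a short form of the interferon-stimulated response element. It was searched on both strands, where it reads TTTCNNTTTC on the other strand, and matches could overlap. Windows ran from 250 bases before to 50 bases after each gene's start (RefSeq, GRCm38.p6). The windows below show 60 bases around the matches on the strand of the gene, with the matches in capitals. They are the rule genes *Ifit1*, *Ifit3* and *Rsad2*, then genes that rose in these cells (*Isg15*, *Ifit3b*, *Oas3*, *Socs1*), and last *Gzma*, which fell.
Ifit1 chr19:34640769-34640828 (+ strand): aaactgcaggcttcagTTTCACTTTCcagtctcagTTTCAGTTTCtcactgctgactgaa
Ifit3 chr19:34583365-34583424 (+ strand): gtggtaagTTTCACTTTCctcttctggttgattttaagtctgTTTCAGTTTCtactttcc
Rsad2 chr12:26456538-26456597 (- strand): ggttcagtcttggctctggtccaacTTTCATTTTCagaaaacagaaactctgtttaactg
Isg15 chr4:156200856-156200915 (- strand): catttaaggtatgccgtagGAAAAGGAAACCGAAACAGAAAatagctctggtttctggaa
Ifit3b chr19:34607761-34607820 (+ strand): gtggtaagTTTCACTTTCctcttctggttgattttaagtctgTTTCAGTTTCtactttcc
Oas3 chr5:120777700-120777759 (- strand): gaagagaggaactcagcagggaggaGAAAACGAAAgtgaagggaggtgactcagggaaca
Socs1 chr16:10785582-10785641 (- strand): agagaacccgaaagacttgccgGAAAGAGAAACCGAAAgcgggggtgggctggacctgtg
Gzma chr13:113101044-113101103 (- strand): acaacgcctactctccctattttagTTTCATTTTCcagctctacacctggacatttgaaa

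*Ifit1* carries 2 matches, the first base of the outer one lying 104 bases before the start. *Isg15* carries 3 overlapping matches between 78 and 57 bases before its start, and *Socs1* has 2 overlapping matches. The windows of *Ifit3* and *Ifit3b* are identical over these 60 bases. The bases that follow the *Ifit3b* start were not found at the beginning of its GENCODE vM21 transcripts, unlike those of the other genes shown. Of all genes with a promoter in the table, 1079 of 27025 held the element (3.99%), and of the genes tested between the classes of cells below, 307 of 7703 (3.99%). It was found in 63 of the 317 genes that were higher in interferon-responding cells and had a window (19.9%), in 5 of 52 that were lower (9.62%) and in 239 of 7334 that were not called (3.26%). Among the genes of the interferon-stimulated lists with a window, 46 of 91 held it (50.5%). Of the rule genes with a window, 3 of 4 held it (not *Cmpk2*). Of the named rising genes with a window, 6 of 9 held it (not *Isg20*, *Ifit2* and *Irf7*). In *Eif2ak2* and *Ifih1* the match lay after the start, so that 4 of 9 held it before the start (44.4%). Before the start it was found in 16.4% of the genes that were higher, 7.69% of those lower and 2.85% of those not called. *Gzma* and *Sgk1* were the 2 of 8 named falling genes with a window that held it. Only windows with a match are shown above. A match describes letters in a window, not a site that was seen to be bound.

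**Figure D1:**
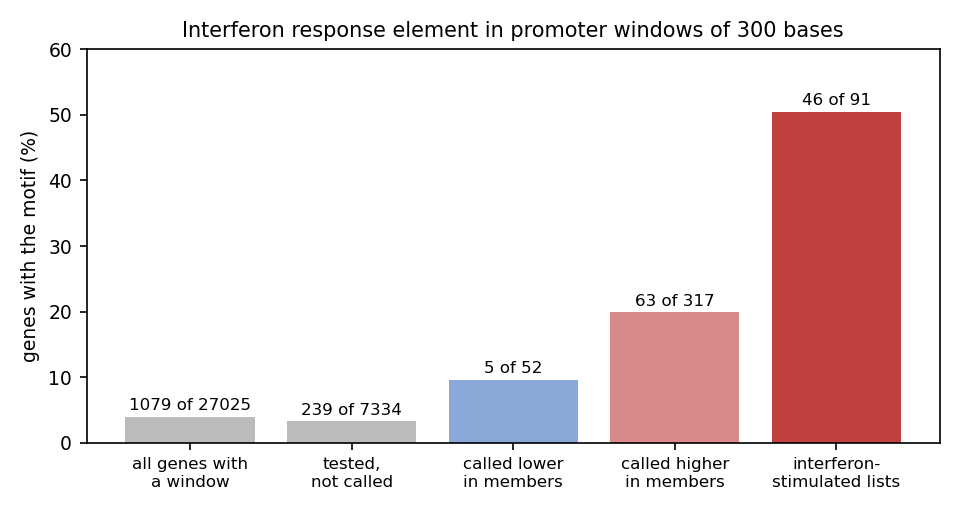
Percent of genes whose 300-base promoter window holds GAAANNGAAA on either strand (vertical bars, axis from 0), by group of genes, with the counts above the bars. The share is 3.99% of all genes, 19.9% of the genes higher in interferon-responding cells and 50.5% of the interferon-stimulated lists.

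The rule genes describe how strong the state is in the chosen cells, with no test, since they chose them. *Ifit1*, whose protein binds foreign RNA ends, stood at 611 and 1140.1 CPM in WT1 and WT2 and 590.5 and 1059.7 CPM in KO1 and KO2 in interferon-responding cells, where CPM is UMIs of the gene per 1000000 UMIs, over the summed cells of a class in 1 library. In the other cells it stood at 11.8, 25.6, 10.9 and 15.2 CPM. *Usp18*, which removes ISG15 from proteins and blocks the interferon receptor, stood at 416 and 499 CPM in WT1 and WT2 and 406 and 450.5 CPM in KO1 and KO2, against 42.4, 40.3, 35.4 and 34.6 CPM. *Ifit1* was the rule gene found most often, in 77.5%, 86.3%, 78.6% and 85.6% of the chosen cells of the 4 libraries in the same order, and *Rsad2*, encoding viperin, the least often, in 22.99%, 23.8%, 31.3% and 23.3%. Most cells held several rule genes. Of the 848 cells, 60 held 1 of the 5 genes, 287 held 2, 302 held 3, 138 held 4 and 61 held all 5.

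The rule sum ran over a range in which no gap marked the threshold. Among the 20818 cells under the gate, 15400 had a rule sum of 0, 3765 a sum of 1 and 805 a sum of 2, just outside the threshold. Just inside it, 256 cells had a sum of 3 and 144 a sum of 4, while 144 cells reached 12 or more, and the highest sums were 34, 31, 27 and 35 in WT1, WT2, KO1 and KO2. *Isg15*, the ubiquitin-like modifier, which the rule did not read, was higher at each step of this range in each library. In cells with a rule sum of 0 it stood at 47.1, 55.3, 33.5 and 41.3 CPM in WT1, WT2, KO1 and KO2. At a sum of 2 it was at 127, 264, 140 and 175 CPM, at 3 to 4 at 316, 513, 343 and 391 CPM, and at 10 or more at 1717, 1783, 1701 and 1752 CPM. A panel of 110 other interferon-stimulated genes summed to 21991, 23818, 19906 and 21837 CPM at a sum of 0 and to 44452, 48437, 42019 and 46062 CPM at 10 or more. *Gzma*, the granule protease granzyme A, ran the other way, from 1124, 1485, 2121 and 2233 CPM at a sum of 0 to 463, 354, 269 and 216 CPM at 10 or more, although not in every step (311 CPM at 3 to 4 in WT1).

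**Figure D2:**
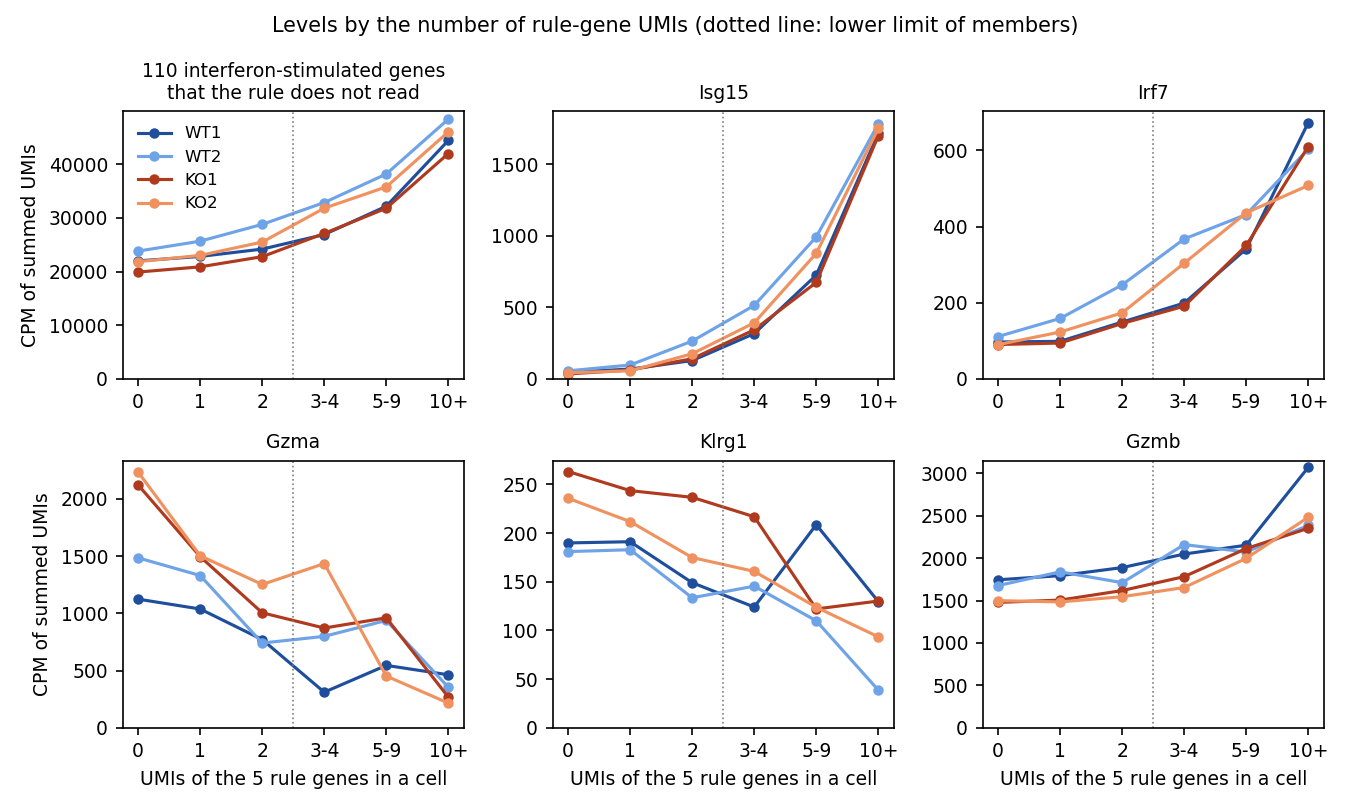
Levels in CPM against the summed UMIs of the 5 rule genes per cell (6 bins from 0 to 10 or more), 1 line per library. *Isg15* and the panel of interferon-stimulated genes are highest in the last bin of all 4 libraries, and *Gzma* is below its level at a sum of 0 in the last bin of all 4.

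The label was checked against the markers. Genes were compared for shared reads by the 50-base words in the last 400 bases of their transcripts, called 3′ words below. Both markers that the rule did not read were far above the other cells in each library. *Rtp4*, a receptor-transporting protein of the interferon response, stood at 321 and 411 CPM in WT1 and WT2 and 301 and 370.4 CPM in KO1 and KO2, against 62.00, 96.3, 45.8 and 60.98 CPM, and *Isg15* at 708 and 938 CPM in WT1 and WT2 and 766 and 854 CPM in KO1 and KO2, against 57.3, 72.1, 44.2 and 49.3 CPM. After each cell was thinned to 1000 UMIs, *Isg15* was found in 41.1%, 53.7%, 42.0% and 52.8% of interferon-responding cells, in 5.82%, 6.30%, 3.51% and 4.67% of the other cells, and in 3.70%, 10.3%, 0% and 6.12% of the few B cells (0 of 26 cells in KO1, which by the limit of 3 counts allows a share of cells with a UMI of up to 11.5%). Without thinning it was found in 72.2%, 74.3%, 69.5% and 74.0% of interferon-responding cells. The cells carried T cell transcripts at a like level to the others, with 7 T cell markers summing to 8254, 8379, 8431 and 8824 CPM against 8343, 8368, 8624 and 8880 CPM. The 4 NK markers summed to 55.00, 90.7, 51.7 and 48.6 CPM in the chosen cells of the 4 libraries and to 64.5, 99.9, 102 and 78.1 CPM in the others, with *Ncr1* at 0 in the chosen cells of every library. The 5 plasmacytoid dendritic cell markers summed to 289, 357, 286 and 358 CPM in the chosen cells and to 147, 153, 116 and 123 CPM in the others, higher in every library. Nearly all of it was *Bst2*, which interferon also induces and which stood at 283, 349, 279 and 355 CPM in the chosen cells, while *Siglech* and *Klk1* were at 0 there in every library and *Ccr9* in 3 of the 4. *Cd79a* and *Ms4a1* were at 0 by the rule, while the summed B cell list stood at 878, 531, 567 and 957 CPM against 429, 427, 506 and 465 CPM, led by *Cd74*. *Mzb1* and *Jchain*, plasma cell genes, were lower than in the other cells.

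Some of the chosen cells held many transcripts of neutrophils and other granulocytes. The 9 myeloid markers found summed to 5795 (WT1), 476 (WT2), 3632 (KO1) and 3030 CPM (KO2), against 1317, 1023, 2083 and 1870 CPM in the other cells, and *S100a8*, the most abundant, to 3481, 190, 1476 and 1400 CPM. Of the 848 cells, 27 had over 1% of their UMIs in 10 granulocyte genes, a threshold set after the values were seen. WT1 held 7 (of 187), WT2 held 1 (of 315), KO1 held 10 (of 131) and KO2 held 9 (of 215), and 190 of the 19970 other cells were like them. Below the threshold no chosen cell exceeded 0.787%, and above it none was under 1.49%. No doublet caller was run. The comparisons below were also fitted without these cells, and calls of named genes that then ended or turned are given both ways. The fit of the other cells with chimera as a block was not repeated without them.

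As a share of gated cells, the interferon-responding cells of WT1 (187 of 4017) came to 4.66%, with an exact 95% interval from 4.02 to 5.35. In WT2 (315 of 6715) the share was 4.69%, between 4.20 and 5.22. The share in KO1 (131 of 4527) was 2.89%, between 2.42 and 3.42, and that in KO2 (215 of 5559) was 3.87%, between 3.38 and 4.41. Both *Bcl3*-/- libraries were below both WT libraries. WT averaged 4.67% ± 0.0253 (SD, n = 2) and *Bcl3*-/- 3.38% ± 0.689 (SD, n = 2), so that the knockout share differed by -1.29 percentage points (-1.76 in chimera 1 and -0.823 in chimera 2). The exact permutation test, taken on both sides, gave p = 0.333, and with 2 libraries against 2 it can give nothing smaller. Since deeper cells reach a sum of 3 more easily, each cell was also thinned to 1000 UMIs, where 2.68%, 4.28%, 1.62% and 2.63% of gated cells in WT1, WT2, KO1 and KO2 held at least 2 rule UMIs. KO2 then lay just below WT1, and the difference of the means was -1.36 points. At 3 rule UMIs or more the thinned shares were 1.175%, 2.18%, 0.863% and 1.42%, where KO2 lay above WT1 and the difference was -0.534 points (exact p = 0.667). At a rule sum of at least 10 the shares were 0.946%, 1.07%, 0.641% and 0.971%, and KO2 lay above WT1 (exact p = 0.667). Intervals cover counting error only. In barcodes of at most 100 UMIs, which hold mostly free RNA in such libraries, the rule genes stood at 194 and 272 CPM in WT1 and WT2 and at 135 and 165 CPM in KO1 and KO2, and the part of free RNA in the shares was not tested.

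**Figure D3:**
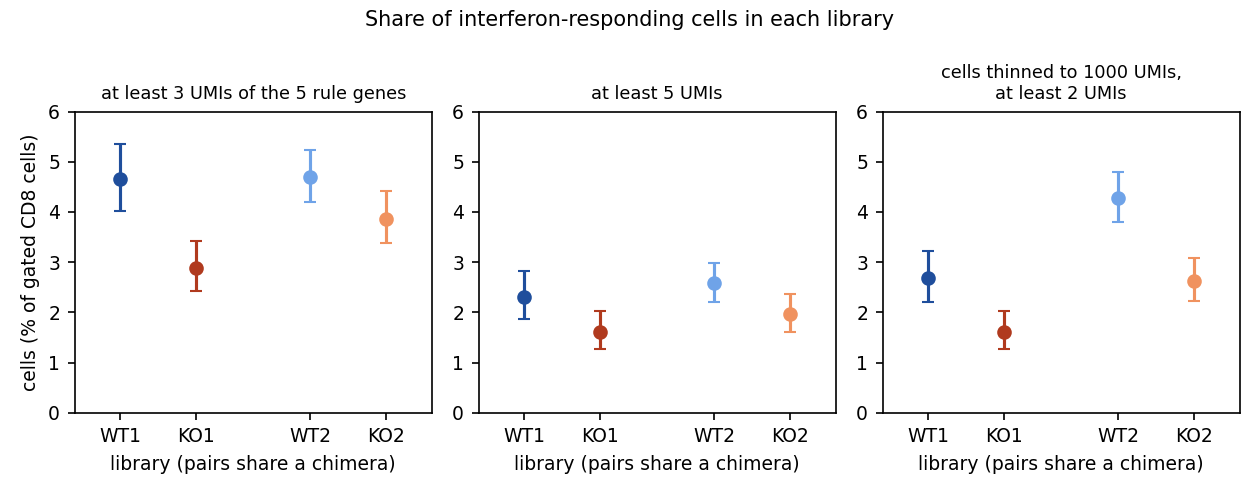
Percent of gated CD8 cells that met the rule in each library (points with exact 95% binomial intervals), in the main setting and with other settings. In the main setting WT1 and WT2 stand at 4.66% and 4.69%, KO1 at 2.89% and KO2 at 3.87%.

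The chosen cells lay partly together among all gated cells. Among the 20 nearest cells of an interferon-responding cell, 49.1%, 56.2%, 46.5% and 51.8% were also interferon-responding in WT1, WT2, KO1 and KO2. Without the 5 rule genes these shares were 36.4%, 40.5%, 30.0% and 38.3%, and without all 157 genes of the interferon lists they were 9.22%, 10.4%, 4.69% and 6.77%, against 4.66%, 4.69%, 2.89% and 3.87% of the cells. Most neighbours of these cells were CD8 cells outside the class in WT1 and KO1 with all genes. This held in every library without the 5 rule genes, and also without the interferon lists.

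Counts summed per library were then compared between the 2 classes of cells, with library as a term, to describe what else set the interferon-responding cells apart. Of 10033 genes tested, 409 were higher (4.08%) and 72 lower (0.718%) by edgeR's quasi-likelihood test at an adjusted p under 0.05. Without the cells rich in granulocyte genes, 369 of 9918 were higher (3.72%) and 123 lower (1.24%). The rule and gate genes were kept out of the test. Genes that respond to interferon vary together with the rule genes from cell to cell, so the direction of the interferon lists below is not independent of how the cells were chosen. The median log2 difference over all genes tested was -0.0034. The 15 largest rises among genes of at least 50 CPM were all genes known to respond to interferon, *Ifit3b* being the largest. Among genes of that level the largest fall was *Gzma*. *Mzb1*, at a mean of 46.2 CPM in the other cells, fell further (log2 -1.32).

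Of 10 receptor and signalling genes tested, 3 were higher and none lower, with a median log2 difference of 0.18. *Stat2*, a subunit of the transcription factor complex that the type I receptor activates, rose by log2 1.202 (edgeR adjusted p = 3.1e-05). *Irf9*, the DNA-binding partner in that complex, stood at 114 and 128 CPM in WT1 and WT2 and 129 and 119 CPM in KO1 and KO2, against 77.1, 84.8, 71.8 and 82.8 CPM in the other cells, a rise of log2 0.67 (SE 0.09, edgeR adjusted p = 3.64e-07). The classes did not overlap in it. The receptor chains did not pass the test. *Ifnar1*, a chain of the type I receptor, stood at 45.00 and 66.5 CPM in WT1 and WT2 and 66.4 and 64.4 CPM in KO1 and KO2, against 63.4, 80.8, 54.5 and 70.8 CPM, a log2 difference of -0.13 (edgeR adjusted p = 0.747). *Ifnar2* differed by log2 0.00, *Ifngr1*, of the interferon-γ receptor, by log2 -0.11 (edgeR adjusted p = 0.271), *Ifngr2* by log2 0.62 (edgeR adjusted p = 0.759), and the kinases *Jak1*, *Jak2* and *Tyk2* by log2 -0.15, 0.20 and 0.16. *Jak1* passed without the cells rich in granulocyte genes (log2 -0.17, edgeR adjusted p = 0.0243). Of 21 interferon genes listed, those of type I and type III had no UMI among the 2868282 of these cells, and *Ifng*, encoding interferon-γ, stood at 73.8 and 77.4 CPM in WT1 and WT2 and 44.3 and 68.6 CPM in KO1 and KO2, against 55.3, 67.3, 52.1 and 63.8 CPM (log2 0.22, edgeR adjusted p = 0.401).

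Of 9 interferon regulatory factors and partners tested, 6 were higher and none lower (median log2 0.52). *Irf7* (chr7:141262706-141266481, - strand, GRCm38), the factor that amplifies the type I response, led them, at 332 and 439 CPM in WT1 and WT2 and 341 and 389 CPM in KO1 and KO2, against 101, 126, 93.2 and 99.4 CPM, with every value above those of the other cells, a rise of log2 1.89 (SE 0.06, edgeR adjusted p = 2.51e-25). *Nmi*, which binds STAT proteins, rose by log2 0.65 (edgeR adjusted p = 8.37e-09) and *Irf1*, which is also induced by interferon-γ, by log2 0.34 (edgeR adjusted p = 0.00168). Among 5 tested genes of negative feedback, 1 was higher (median log2 0.29). It was *Socs1*, whose protein blocks JAK kinases, at 68.8 and 122 CPM in WT1 and WT2 and 49.8 and 107 CPM in KO1 and KO2, against 21.8, 20.4, 17.7 and 18.3 CPM, a rise of log2 2.21 (SE 0.15, edgeR adjusted p = 1.92e-15). Its lowest value, in KO1, was above the highest of the other cells. *Ptpn6*, the phosphatase SHP-1, was at 246 and 249 CPM in WT1 and WT2 and 275 and 273 CPM in KO1 and KO2 and did not pass (log2 0.10, edgeR adjusted p = 0.585).

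All 5 tested genes of ISG15 and its conjugation were higher (median log2 1.56). *Isg15* (chr4:156199424-156200818, - strand) rose by log2 3.93 (SE 0.06, edgeR adjusted p = 1.34e-36), and *Uba7*, the enzyme that activates it, by log2 0.89 (edgeR adjusted p = 4.46e-06). All 4 tested IFIT genes, whose proteins bind viral RNA, were higher as well (median log2 2.48). *Ifit3b* (chr19:34607970-34613401, + strand) stood at 47.5 and 58.03 CPM in WT1 and WT2 and 77.5 and 72.9 CPM in KO1 and KO2, against 1.498, 4.07, 3.29 and 3.29 CPM, a rise of log2 4.45 (SE 0.20, edgeR adjusted p = 3.26e-21). *Ifit2* rose by log2 2.28 (edgeR adjusted p = 1.11e-14) and *Ifit1bl1* by log2 1.82 (edgeR adjusted p = 4.93e-23). Of the 50-base words in the 3′ end of *Ifit3*, 19.1% were shared with *Ifit3b*, so that the counts of both are uncertain. Of those in *Ifit3b*, 2.28% were shared, with genes such as *E2f1* and *Lrp8*. Without the cells rich in granulocyte genes *Ifit1bl2*, the least abundant of the 4, was too low to be tested.

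Sensors of viral RNA and the enzymes that act on it were higher too. Of 6 genes of the OAS group and its pathway tested, 4 were higher (median log2 1.81). OAS enzymes sense double-stranded RNA and make short oligoadenylates from ATP. *Oas3* stood at 77.5 and 112 CPM in WT1 and WT2 and 90.4 and 116 CPM in KO1 and KO2, against 19.8, 23.9, 17.9 and 25.2 CPM, a rise of log2 2.23 (SE 0.12, edgeR adjusted p = 7.96e-19). *Oas1a* rose by log2 1.39 (edgeR adjusted p = 2.13e-15), with 43.6% of its 3′ words shared with *Oas1g*, and *Oasl2* by log2 3.10 (edgeR adjusted p = 1.08e-14), while *Oas1c* was not called. *Mx1*, a GTPase gene of the interferon response, rose by log2 2.94 (edgeR adjusted p = 7.55e-20). Of 9 nucleic acid sensors tested, 6 were higher (median log2 1.47). *Ifih1* (MDA5) rose by log2 2.19 (edgeR adjusted p = 2.23e-14), *Dhx58* (LGP2) by log2 2.51 (edgeR adjusted p = 1.27e-17), *Ddx58* (RIG-I) by log2 1.68 (edgeR adjusted p = 2.03e-15) and *Eif2ak2*, the kinase PKR that halts translation, by log2 2.33 (edgeR adjusted p = 5.36e-15). *Zbp1*, a sensor of Z-form nucleic acid that can trigger cell death, was the most abundant, at 422 and 482 CPM in WT1 and WT2 and 369 and 489 CPM in KO1 and KO2, against 168, 193, 142 and 155 CPM. The DNA sensing genes *Mb21d1* (cGAS), *Tmem173* (STING) and *Aim2* were not called.

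All 14 tested guanylate-binding proteins and interferon GTPases were higher (median log2 1.35), with *Igtp* rising by log2 1.24 (edgeR adjusted p = 1.59e-22), *Gbp2* by log2 1.37 (edgeR adjusted p = 4.89e-20) and *Iigp1* by log2 2.16 (edgeR adjusted p = 1.02e-14). These proteins attack the vacuoles of intracellular microbes and respond to both types of interferon. All 7 tested genes of the IFI200 family were higher (median log2 2.00). *Ifi203* rose by log2 1.13 (edgeR adjusted p = 4.03e-20) and *Pydc3* by log2 2.00 (edgeR adjusted p = 6.27e-18), with 25.6% of the 3′ words of *Pydc3* shared with *Ifi213*. Of 23 other antiviral genes, 20 were higher (median log2 1.53). Among them were *Isg20*, an exonuclease, with log2 2.66 (edgeR adjusted p = 1.05e-23), *Samhd1*, which degrades deoxynucleotides, with log2 1.13 (edgeR adjusted p = 1.49e-22), *Bst2*, which tethers budding virus, with log2 1.36 (edgeR adjusted p = 6.59e-19), and *Ifi27l2a* with log2 1.12 (edgeR adjusted p = 8.63e-20). Of 12 PARP and Schlafen genes, 11 were higher (median log2 1.65), for example *Slfn1* with log2 1.51 (edgeR adjusted p = 3.85e-22).

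The *Ifitm* genes, which encode membrane proteins that block viral fusion, did not move as a group. *Ifitm3* rose by log2 1.53 (edgeR adjusted p = 2.93e-15), and by the same log2 1.53 without the cells rich in granulocyte genes. *Ifitm2* rose by log2 0.77 (edgeR adjusted p = 0.00164) with those cells and differed by log2 -0.29 (edgeR adjusted p = 0.626) without them. *Ifitm1* differed by log2 0.47 (edgeR adjusted p = 0.147) with them and fell by 0.71 on the log2 scale without them (edgeR adjusted p = 7.18e-07).

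Of 22 further interferon-stimulated genes, 20 were higher (median log2 0.89). The surface antigen *Ly6a* (Sca-1) stood at 1962 and 2269 CPM in WT1 and WT2 and 1687 and 1809 CPM in KO1 and KO2, against 1245, 1378, 871 and 909.6 CPM, a rise of log2 0.88 (SE 0.04, edgeR adjusted p = 3.85e-22). *Ms4a4b* rose by log2 0.31 (edgeR adjusted p = 1.02e-14) and *Ly6c2* by log2 0.24 (edgeR adjusted p = 1.11e-10). Of 17 genes of MHC class I and peptide processing, 14 were higher (median log2 0.34). *B2m*, the light chain of class I, rose by log2 0.17 (edgeR adjusted p = 6.58e-09), and the heavy chains *H2-K1* and *H2-D1* by log2 0.13 (edgeR adjusted p = 0.000441) and 0.08 (edgeR adjusted p = 0.0226), while *H2-D1* did not pass without the cells rich in granulocyte genes (log2 0.06, edgeR adjusted p = 0.0993). *H2-Q7*, *Erap1* and *Nlrc5* were not called, although *Nlrc5* passed without those cells (log2 0.41, edgeR adjusted p = 0.0415).

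**Figure D4:**
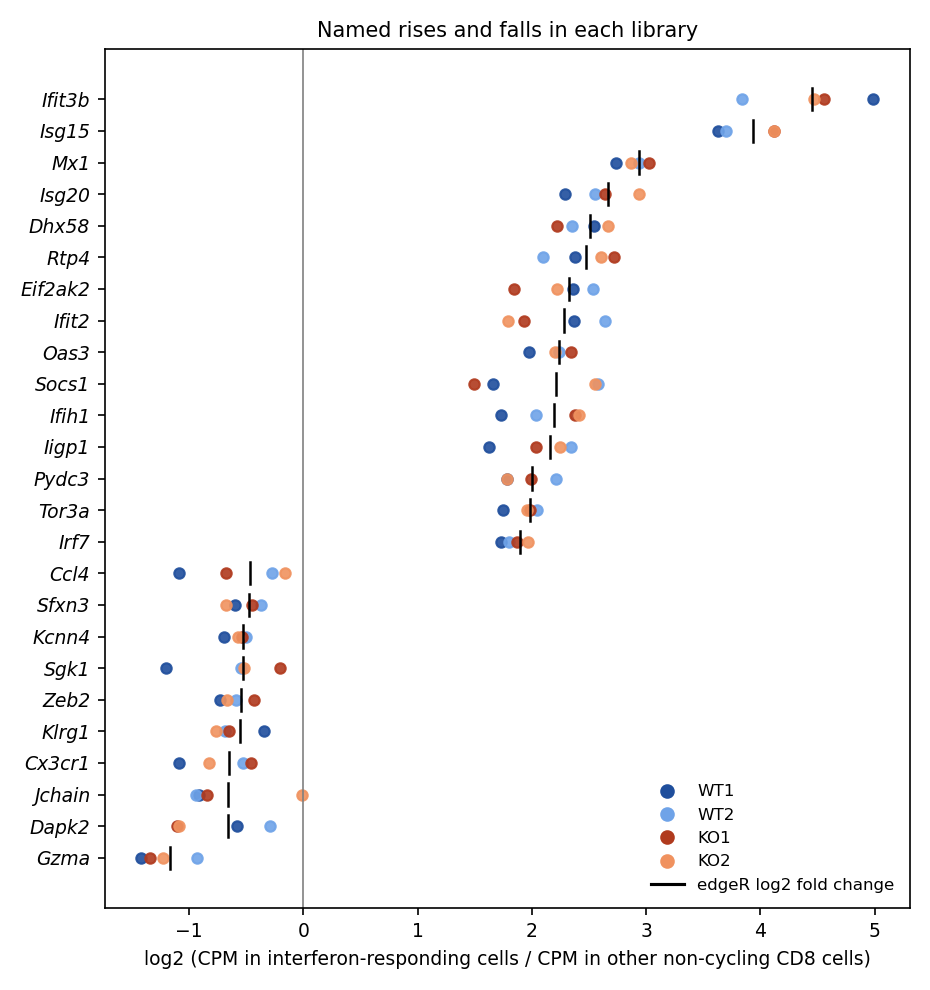
Ratio of the level in interferon-responding cells to that in the other non-cycling CD8 cells of the same library (log2 axis), 1 point per library, for the named rising and falling genes. All 15 rising genes lie above 0 in the 4 libraries and all 10 falling genes below 0.

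Among the genes that fell were most of a list kept for terminally differentiated effectors, short-lived cells that kill and circulate. Of the 7 genes on this list, which also holds genes of the exit from tissues such as *Klf2*, 6 were lower and none higher. The median log2 difference was -0.55. *Klrg1* (chr6:122270596-122282882, - strand), the inhibitory receptor that marks them, stood at 148 and 111 CPM in WT1 and WT2 and 164 and 134 CPM in KO1 and KO2, against 187, 179, 258 and 229 CPM. The highest value of the interferon-responding cells was below the lowest of the others, a fall of log2 -0.56 (SE 0.07, edgeR adjusted p = 3.46e-07). *Cx3cr1*, the fractalkine receptor, stood at 25.00 and 32.6 CPM in WT1 and WT2 and 77.5 and 45.8 CPM in KO1 and KO2, against 53.2, 47.1, 106 and 81.2 CPM, lower in each library although the ranges of the classes overlapped, a fall of log2 -0.65 (SE 0.12, edgeR adjusted p = 0.000247). *Zeb2*, a repressor needed for this fate, fell likewise (log2 -0.55, edgeR adjusted p = 0.00197, although not at a rule sum of at least 5, with log2 -0.44 and edgeR adjusted p = 0.164), as did *Klf2*, which drives the exit from tissues (log2 -0.27, edgeR adjusted p = 1.13e-07). *Tbx21*, encoding T-bet, was not called (log2 -0.14, edgeR adjusted p = 0.561).

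Effector genes were split. Of 12 tested, 2 were higher and 3 lower (median log2 0.07). *Gzma* (chr13:113093825-113100981, - strand) stood at 404 and 745 CPM in WT1 and WT2 and 766 and 875 CPM in KO1 and KO2, against 1079.7, 1423, 1938 and 2053 CPM, lower in every library and without overlap of the classes, a fall of log2 -1.17 (SE 0.04, edgeR adjusted p = 2.3e-23). *Gzmb* (chr14:56258838-56262260, - strand), granzyme B, stood at 2282 and 2182 CPM in WT1 and WT2 and 2026 and 1948 CPM in KO1 and KO2, against 1766, 1709, 1490.4 and 1498 CPM, and rose by log2 0.44 (SE 0.03, edgeR adjusted p = 2.71e-16). *Gzma* and *Gzmb* thus moved in opposite directions in each of the 4 libraries. The chemokine genes *Ccl4* and *Ccl5* fell (log2 -0.47, edgeR adjusted p = 0.00326, and -0.16, edgeR adjusted p = 2.74e-08). The call of *Ccl4* ended in DESeq2, with thinning (log2 -0.27, edgeR adjusted p = 0.703), without WT1 (log2 -0.29, edgeR adjusted p = 0.185) and without KO1 (log2 -0.42, edgeR adjusted p = 0.11). *Nkg7*, a granule membrane protein, stood at 3546 and 4022 CPM in WT1 and WT2 and 3796 and 3826 CPM in KO1 and KO2 and was not called (log2 0.00). In detection after thinning, *Gzma* was found in 20.5%, 22.7%, 26.0% and 23.8% of interferon-responding cells and in 25.1%, 30.2%, 35.6% and 34.0% of the others. In B cells, which should lack it, the shares at the same depth were 3.70%, 17.2%, 23.1% and 10.2%, so that the share of interferon-responding cells in KO1 was close to that background.

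Of 12 genes of memory precursors and naive cells, 1 was higher (not without the cells rich in granulocyte genes) and 1 lower, the latter being *Bcl2*, an inhibitor of cell death (log2 -0.38, edgeR adjusted p = 0.00107), with a median log2 difference of -0.09. *Cxcr3* and *Lef1* were not called (log2 -0.05 and -0.13). Of 12 activation and inhibitory receptor genes, 3 were higher (median log2 0.11), namely *Cd69*, *Pdcd1* and *Lag3*. *Lag3*, an inhibitory receptor that binds MHC class II, stood at 161 and 143 CPM in WT1 and WT2 and 138 and 112 CPM in KO1 and KO2, against 137, 129.5, 88.01 and 71.1 CPM (log2 0.44, edgeR adjusted p = 0.000628). Of 11 NF-κB and IκB genes, only *Bcl3* was called. It stood at 47.5 and 123 CPM in WT1 and WT2 and 22.1 and 114 CPM in KO1 and KO2, against 27.5, 106, 23.002 and 83.7 CPM, a rise of log2 0.43 (SE 0.11, edgeR adjusted p = 0.0105), and the 2 chimeras differed more in it than the 2 classes of cells did. None of 9 cell cycle genes tested was called, and of 5 genes of cell handling stress *Junb* was (log2 0.30, edgeR adjusted p = 0.00795), but not without the cells rich in granulocyte genes (log2 0.10, edgeR adjusted p = 0.692).

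Among markers of other cell types, *Cd74* and *H2-Aa*, the MHC class II invariant chain and α chain, were higher in interferon-responding cells (log2 0.72, edgeR adjusted p = 3.33e-09, and 0.90, edgeR adjusted p = 5.71e-09), while *Cd79b* was at 18.8 and 13.3 CPM in WT1 and WT2 and 22.1 and 30.03 CPM in KO1 and KO2 and was not called. *Mzb1*, with 92.7% of its 3′ words shared with *Spata24*, and *Jchain* fell (log2 -1.32, edgeR adjusted p = 1.74e-07, and -0.66, edgeR adjusted p = 9.78e-06; the call of *Jchain* ended with thinning), as did the NK receptor gene *Klrb1c* (log2 -0.99, edgeR adjusted p = 0.00153). The part of such cells in the results was not tested. *S100a8* and *S100a9* were higher (log2 0.94, edgeR adjusted p = 0.00205, and 1.26, edgeR adjusted p = 5.07e-07) and differed by log2 -0.09 and 0.02 without the cells rich in granulocyte genes.

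The last question was whether *Bcl3*-/- and WT cells differed within the interferon-responding class. Of 6086 genes tested, 11 were higher (0.181%) and 1 lower (0.0164%) in *Bcl3*-/- cells by edgeR. With chimera as a block, since WT and *Bcl3*-/- cells of 1 number came from 1 animal, 59 were higher (0.969%) and 30 lower (0.493%). Of 132 genes of the interferon lists tested, none was called without the block by edgeR or DESeq2. Of the 132, 13 higher and 6 lower passed an unadjusted p of 0.05 in edgeR. Both were larger shares than the 304 higher and 186 lower of all 6086 genes (5% and 3.06%). With the block *Ifitm2* and *Ifitm3* were higher (log2 1.48, edgeR adjusted p = 0.00472, and 0.73, edgeR adjusted p = 0.0196) and *Igtp* and *Ifngr1* lower (log2 -0.60, edgeR adjusted p = 0.0108, and -0.52, edgeR adjusted p = 0.036). Without the cells rich in granulocyte genes, and with the block, *Ifitm2* and *Ifitm3* turned and were not called (log2 -0.53, edgeR adjusted p = 0.711, and -0.20, edgeR adjusted p = 0.716), *Ifitm1* was lower (log2 -1.40, edgeR adjusted p = 0.00242), and *Igtp* and *Ifngr1* were lower (log2 -0.63, edgeR adjusted p = 1.96e-05, and -0.52, edgeR adjusted p = 0.00112). Of 131 interferon-list genes tested without those cells, 2 were higher and 6 lower with the block, beside 1.49% and 0.936% of all 5985 genes. None was called without it, where 8 higher and 13 lower passed an unadjusted p of 0.05, beside 4.63% and 3.54% of all genes. Both genotypes were held to the same lower limit of the rule sum, which restricts how far genes that vary with it can differ between them. *Isg15* stood at 708 and 938 CPM in WT1 and WT2 and 766 and 854 CPM in KO1 and KO2 and differed between genotypes by log2 -0.02 (edgeR adjusted p = 0.986) and *Irf7* by log2 -0.08 (edgeR adjusted p = 0.942). The WT and *Bcl3*-/- ranges of both overlapped. *Bcl3* itself differed by log2 -0.26 (edgeR adjusted p = 0.936).

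*Cd3e* (chr9:44998740-45009627, - strand), encoding the CD3 ε chain, stood at 492 and 413 CPM in WT1 and WT2 and 821 and 962 CPM in KO1 and KO2 in interferon-responding cells. Both *Bcl3*-/- libraries were above both WT libraries, a difference of log2 0.97 (SE 0.16, edgeR adjusted p = 0.0446). The other CD8 cells showed it alike, at 524, 433, 864 and 992 CPM (log2 0.94, edgeR adjusted p = 0.0494, and 0.94, edgeR adjusted p = 0.0509 without the cells rich in granulocyte genes), and the test of the difference between classes gave log2 0.00 (edgeR adjusted p = 1). *S100a4*, a calcium-binding protein of effector and memory cells, stood at 741 and 609 CPM in WT1 and WT2 and 1462 and 1360.1 CPM in KO1 and KO2, against 920.0, 703, 1416 and 1433 CPM in the other cells, and was higher in the *Bcl3*-/- interferon-responding cells by log2 1.06 (SE 0.17, edgeR adjusted p = 0.0372), with 50.7% of its 3′ words shared with the overlapping *Gm42674*. *Bin2*, a membrane-curving protein of leukocytes, was higher by log2 1.15 (edgeR adjusted p = 0.0442) and *Hypk*, a chaperone with 34.2% of its 3′ words in *Serf2*, by log2 1.25 (edgeR adjusted p = 0.0372). The calls of all 4 genes ended without KO1 or without KO2, a fit in which 1 *Bcl3*-/- library is assumed to vary as the WT libraries do, while the differences stayed of a like size. Without KO1 and without KO2 they were log2 1.03 and 0.88 for *Cd3e* (edgeR adjusted p = 0.369 and 0.647), log2 0.95 and 1.14 for *S100a4*, log2 1.34 and 0.88 for *Bin2* and log2 1.14 and 1.36 for *Hypk*. At a rule sum of at least 2 they ended too (*Cd3e* log2 0.93, edgeR adjusted p = 0.0701). The call of *Bin2* also ended with thinning, and that of *Hypk* with thinning, in DESeq2 and at a rule sum of at least 5. In the other CD8 cells *Hypk* was higher in *Bcl3*-/- by log2 0.98 (edgeR adjusted p = 0.035). *Bin2* and *S100a4* differed there by log2 1.09 (edgeR adjusted p = 0.0648) and 0.79 (edgeR adjusted p = 0.129). The test of the difference between classes called none of these genes.

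Several calls were on genes whose reads cannot be told apart from a near copy. *Rpl6l*, *Rpl23a-ps3* and *Gm8730* share 86.9%, 86.3% and 84.9% of their 3′ words with other genes, among them *Rpl6*, *Rpl23a* and *Rplp0*. They were higher in *Bcl3*-/- cells by log2 1.57, 1.36 and 1.11, and the predicted gene *Gm6133*, which shares none, by log2 2.15. *Hist1h2ap*, a histone gene with all of its 3′ words in other histone genes, was the only gene that was lower, at 111 and 125 CPM in WT1 and WT2 and 35.1 and 12.9 CPM in KO1 and KO2 (log2 -2.37, edgeR adjusted p = 0.0139). Each of these differed in the same direction in the other CD8 cells. Without KO1 the calls of *Rpl6l*, *Rpl23a-ps3* and *Gm8730* ended, and without KO2 those of all 5 did. Those of *Gm6133* and *Hist1h2ap* also ended with thinning, and that of *Gm8730* at a rule sum of at least 2.

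*Wfdc17* (chr11:83703991-83706268, + strand), encoding a secreted protein of myeloid cells, stood at 46.2 and 30.2 CPM in WT1 and WT2 and 312 and 229 CPM in KO1 and KO2, against 32.03, 25.7, 69.7 and 34.9 CPM in the other cells. Both *Bcl3*-/- libraries were far above WT, a difference of log2 2.81 (SE 0.26, edgeR adjusted p = 0.00129). They were also above WT in the other cells (log2 0.85, edgeR adjusted p = 0.323, and with the block 0.79, edgeR adjusted p = 0.0313). The difference there was log2 0.41 (edgeR adjusted p = 0.534) without the cells rich in granulocyte genes and without the block. Without the 27 cells rich in granulocyte genes it stood at 7.81, 30.3, 31.4 and 17.6 CPM, and the difference was log2 0.28 (edgeR adjusted p = 0.936).

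Within the other non-cycling CD8 cells, 29 of 10896 genes were higher (0.266%) and 7 lower (0.0642%) in *Bcl3*-/- cells, and with the block 228 were higher (2.09%) and 189 lower (1.73%). Of 147 interferon-list genes tested there, none was called without the block by edgeR (10 higher and 32 lower passed an unadjusted p of 0.05, beside 7.31% and 5.86% of all genes). DESeq2 called 7 lower, beside 0.434% of the 8994 genes to which it gave an adjusted p, and under the block 3 were higher and 25 lower. Without the cells rich in granulocyte genes none of 142 was called by edgeR without the block (8 higher and 35 lower passed an unadjusted p of 0.05, beside 7.21% and 5.91% of all genes). The 14 guanylate-binding proteins and GTPases had a median log2 difference of -0.40, with 6 lower and none higher under the block. The MHC class I list had a median of -0.24, with 6 of 17 lower under the block and none higher. Within interferon-responding cells the medians of the same lists were -0.16 and -0.16, with 1 and 0 genes lower under the block. Over all genes tested the medians were 0.0078 in the other cells and 0.003 in interferon-responding cells. The difference between the classes was tested gene by gene, as the interaction of class and genotype, which called 24 of 10616 genes higher (0.226%) and 12 lower (0.113%). In the 2 lists above it called no gene. The same held there with the block, and without the cells rich in granulocyte genes. Without those cells the interaction called 5 of 10496 genes higher (0.0476%) and 4 lower (0.0381%). *Cd74* was one of the latter (log2 -0.54, edgeR adjusted p = 0.000338, against -0.06, edgeR adjusted p = 0.994 with those cells), and within interferon-responding cells it was lower in *Bcl3*-/- cells in the fit without those cells and with the block (log2 -0.59, edgeR adjusted p = 0.0455).

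*Isg15*, *Ifi27l2a* and *Ly6a* were among those called both ways, but not under every other setting. The call of *Isg15* ended in DESeq2, with thinning, at a rule sum of at least 5 or of at least 2, and without any 1 of the 4 libraries (log2 0.37 to 0.46, edgeR adjusted p from 0.126 to 0.431). That of *Ly6a* ended in DESeq2, with thinning, at a rule sum of at least 2, without WT1 (log2 0.22, edgeR adjusted p = 0.143) and without KO2 (log2 0.24, edgeR adjusted p = 0.33). That of *Ifi27l2a* ended at a rule sum of at least 2 only (log2 0.22, edgeR adjusted p = 0.841). *Isg15* stood at 57.3, 72.1, 44.2 and 49.3 CPM in the other cells of WT1, WT2, KO1 and KO2, lower in both *Bcl3*-/- libraries (log2 -0.48, edgeR adjusted p = 0.167, and with the block -0.48, edgeR adjusted p = 0.025), while in the interferon-responding cells the genotypes differed by log2 -0.02. The difference of these differences was log2 0.43 (SE 0.10, edgeR adjusted p = 0.00672), and 0.45 (edgeR adjusted p = 0.00944) without the cells rich in granulocyte genes. For *Ifi27l2a* it was log2 0.50 (SE 0.07, edgeR adjusted p = 1.79e-10) and for *Ly6a* log2 0.27 (SE 0.06, edgeR adjusted p = 0.000863). In all 3 the genotypes lay closer together among the interferon-responding cells than among the others. Interferon-responding cells of both genotypes had to reach the same rule sum, and *Isg15* and *Ly6a* rose with that sum in each library. This restricts how far such genes can differ between the genotypes there. The cause was not tested. In barcodes of at most 100 UMIs *Isg15* stood at 106, 101, 70.2 and 63.9 CPM in WT1, WT2, KO1 and KO2. These values lay above the other cells of each library and were also lower in *Bcl3*-/-. The part of free RNA in the difference was not tested. *Ifitm1*, *Ifitm2*, *Ifitm3*, *Lyz2*, *Wfdc17* and *S100a8* were called only with the cells rich in granulocyte genes.

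**Figure D5:**
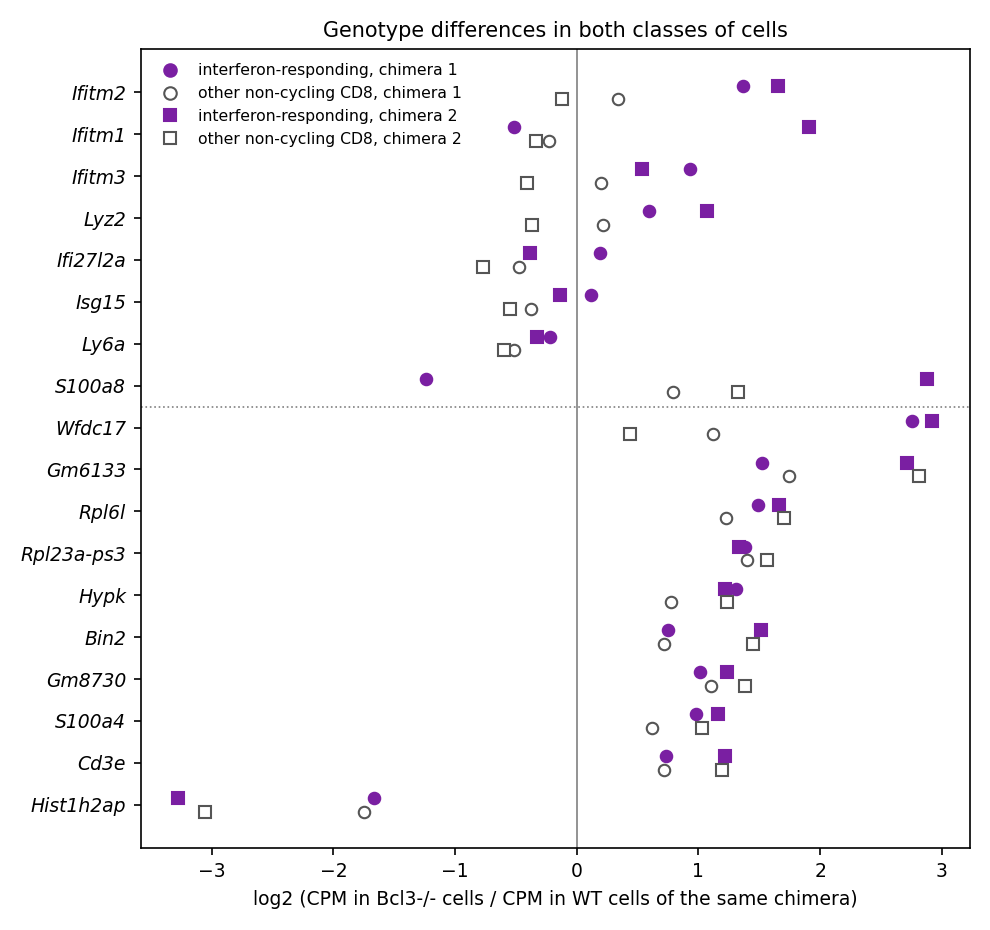
Ratio of the level in *Bcl3*-/- to that in WT cells of the same chimera (log2 axis), for interferon-responding cells (filled) and the other non-cycling CD8 cells (open), circles for chimera 1 and squares for chimera 2. Genes above the dotted line were named in the test between classes and those below it in the test within interferon-responding cells. For *Isg15* the filled points lie near 0 and the open points below it, and for *Cd3e* all 4 points lie above 0.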

How the data were processed

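The authors made 3′ single-cell libraries (10x Genomics, version 2) and, per the labels and the submitters' processing notes, used bcl2fastq 2.17 and Cell Ranger 2.2.0 with mm10. The annotation is not given in the sources used here. They deposited unfiltered, unnormalized UMI counts per gene and barcode. Of the 27998 gene identifiers, 27722 were found in GENCODE vM21 (GRCm38), used for coordinates. Counts were summed per library and class and compared by the quasi-likelihood test of edgeR 4.0.16, after its TMM scaling and low-count filter, with Benjamini-Hochberg adjustment at 0.05, with DESeq2 1.42.0 as an alternative. On simulated counts the edgeR fit recovered 33.5% of 2-fold and 86% of 4-fold changes between genotypes within interferon-responding cells, 55% and 85.5% between classes, 6% and 53.5% of interactions and 73.5% and 99.5% between genotypes in the other cells. WT and *Bcl3*-/- libraries of 1 number came from 1 animal. Differences between chimeras correlated at 0.300 in interferon-responding cells (2618 genes) and 0.651 in the others (2628 genes). Members, gene lists and tests were chosen with earlier results of these data known. Named genes are the markers and receptor genes, the 15 largest rises and 10 largest falls between classes and up to 10 each way between genotypes, of at least 50 CPM and alike in all libraries or both chimeras, the 3 most abundant genes of each list, list genes called by genotype or interaction, and *Bcl3*. Segments of antigen receptors and sex-linked genes (*Xist*, the Y chromosome) were left out of the largest changes. Other experiments of the study were not analysed here. Some genes are not reported here.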

Additional observations from a re-analysis of the deposited data

Results flagged for a closer look

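Interferon-responding cells of both genotypes had to reach the same rule sum, which restricts how far genes that vary with it can differ between them. The genotype difference in interferon-responding cells departed from that in the other non-cycling CD8 cells, by the interaction test of edgeR, for each of the genes below. It was higher for *Isg15* (log2 0.43), *Ifi27l2a* (log2 0.50) and *Ly6a* (log2 0.27), all of which were also called without the cells rich in granulocyte genes (log2 0.45, 0.47 and 0.28). The call of *Isg15* ended without any 1 of the 4 libraries, and that of *Ly6a* without WT1 or KO2. Both ended in DESeq2 and with thinning, and those of all 3 ended at a rule sum of at least 2. It was higher for *Wfdc17* (log2 2.00), *Ifitm1* (log2 1.07), *Ifitm2* (log2 1.31), *Ifitm3* (log2 0.83) and *Lyz2* (log2 0.73) and lower for *S100a8* (log2 -0.67), none of which was called without those cells.

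Barcodes with at most 100 UMIs, which are taken to hold mostly free RNA and were used in no comparison, carried the 5 rule genes at 194 CPM in WT1, 272 CPM in WT2, 135 CPM in KO1 and 165 CPM in KO2. These values lie above the other non-cycling CD8 cells (87.6, 116, 73.1 and 80.9 CPM) and below the interferon-responding cells (1624, 2667, 1718 and 2258 CPM), and in both chimeras the WT library is the higher.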

How the results depend on the processing

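The lower share of interferon-responding cells in *Bcl3*-/- libraries kept its direction under all 12 other settings, from -0.203 to -2.66 percentage points, and from -0.806 to -1.78 without 1 library. Of the 25 named genes of the class comparison, 19 were called under all 12 alternatives, and none turned (*Ccl4*, *Dapk2*, *Jchain*, *Kcnn4*, *Sfxn3* and *Zeb2* lost their call under at least 1). Of the 10 named between genotypes within interferon-responding cells and the 10 named for the interaction, 0 and 0 were called under all 14 alternatives, and 0 and 5 turned. Without KO2, 1 of the former and 2 of the latter were called. Genotype counts moved most. Within interferon-responding cells (11 higher, 1 lower), the replicate block gave 59 and 30, no filter 90 and 40, a rule sum of at least 5 gave 17 and 3, leaving out the deepest 1% of cells 18 and 4, leaving out the cells rich in granulocyte genes 20 and 3, the latter with the block 89 and 56, DESeq2 15 and 2, and leaving out 1 library from 1 to 99 and from 0 to 44 (1 and 0 without KO2, 99 and 25 without WT1). Between classes (409 and 72), thinning gave 251 and 42, DESeq2 31 lower, no filter 130 lower, leaving out the cells rich in granulocyte genes 123 lower, and leaving out 1 library 288 to 361 higher and 44 to 60 lower, the lowest without KO2. The interaction (24 and 12) gave 2 and 0 in DESeq2, 8 and 4 with thinning, 3 and 0 at a rule sum of at least 2, 5 and 4 without the cells rich in granulocyte genes, 6 and 3 also with the replicate block, and 3 to 21 and 0 to 13 without 1 library (3 and 0 without KO2). In the other cells (29 and 7), the replicate block gave 228 and 189, DESeq2 86 and 39, no filter 18 and 4, thinning 9 and 2, and leaving out 1 library 7 to 183 and 7 to 112. The cause was not tested. The block ended no call of the genes named between genotypes or for the interaction. It was not run for the comparison of classes, which has library as a term.

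Without the cells rich in granulocyte genes the interaction turned for *Wfdc17* (log2 -0.11, and -0.053 with the block), *Ifitm1* (-0.96 and -0.97), *Ifitm2* (-0.32 and -0.33) and *S100a8* (0.089 and 0.087). At a rule sum of at least 2 it turned for *S100a8* (0.15) and *Lyz2* (-0.36). Without 1 library it ranged from -0.13 (without KO2) to 1.93 for *Ifitm1*, from -2.09 to 1.54 (without WT1) for *S100a8* and from -0.035 (without WT2) to 1.97 for *Lyz2*. With 2 libraries a genotype and 131 to 315 chosen cells in each, small differences between genotypes could often not be detected. On simulated counts, with a dispersion of 0.02 and no difference between chimeras, 33.5% of 2-fold changes within interferon-responding cells were recovered. For the interaction 6% of 2-fold and 53.5% of 4-fold changes were.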

Other observations

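Of the 409 genes higher in interferon-responding cells, 281 belonged to no list, and 220 of those were also called without the cells rich in granulocyte genes, while 61 were not. The genes named here were chosen after their values were seen, as the 8 largest among those of at least 100 CPM with the same direction in all 4 libraries. *Amica1* (also known as *Jaml*), an adhesion molecule that costimulates T cells, stood at 146 and 247 CPM in WT1 and WT2 and 133 and 193 CPM in KO1 and KO2, against 43.3, 69.96, 36.03 and 56.1 CPM in the other non-cycling CD8 cells, a log2 difference of 1.86. *Pyhin1*, of the same family as the IFI200 genes, stood at 270.0 and 325 CPM in WT1 and WT2 and 310.0 and 398 CPM in KO1 and KO2, against 102, 112, 104 and 131 CPM (log2 1.59). *Trafd1*, a feedback inhibitor of innate sensing, was higher by log2 1.72, the pyrophosphatase *Ppa1* by log2 1.41 and the acetyltransferase subunit *Naa20* by log2 1.40. *BC094916*, *Gm4955* and *Mitd1* were higher by log2 1.48, 1.39 and 1.16.

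Of the 72 genes that were lower, 59 belonged to no list and all 59 were also called without those cells, with the same direction in all 4 libraries. By the same rule the largest were *Txndc5*, of protein folding (log2 -0.45), *Ahnak* (log2 -0.41), *Prex1* (log2 -0.38), *Ifitm10* (log2 -0.37), *Itgb1* (log2 -0.36), *Neat1* (log2 -0.36), *Abcf1* (log2 -0.34) and *Gna15* (log2 -0.32). *Itgb1*, the integrin β1 chain, stood at 90.00 and 276 CPM in WT1 and WT2 and 133 and 279 CPM in KO1 and KO2, against 172, 330.1, 151 and 359.9 CPM, and the chimeras differed in it more than the classes did.

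The chimeras also differed in sex-linked transcripts. *Xist* stood at 6.25 and 325 CPM in WT1 and WT2 and 27.7 and 335 CPM in KO1 and KO2 among interferon-responding cells, and 4 Y-linked genes summed to 96.3, 38.7, 124 and 72.9 CPM, so that both kinds of transcript were found in each library.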
